A study of Mus musculus with 28 samples.

Results

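Total RNA of the motor cortex was compared between mice that had run on a rotarod and mice that had stayed in their home cage. The comparison uses the total lysate libraries, chosen by the total lysate mark in their column names, which are 14 of the 28 libraries of the series. They come from 7 run mice and 7 home cage mice, with 4 mice of each condition in cohort 1 and 3 in cohort 2, and the labels give 4 females and 3 males per condition. The run mice spent 1 h on the rotarod, a rotating rod on which a mouse has to keep walking, before tissue was taken, and the home cage mice were the baseline controls. All mice carried Cx3CR1-Cre/TRAPfl, in which Cre driven from the Cx3cr1 gene switches on a ribosome tag in microglia and other Cx3cr1-expressing cells. There was no group without these alleles. The other 14 libraries are TRAP, the mRNA pulled down with the tagged ribosomes, from the same mice. No source used here gives the ages of the mice.

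When neurons fire, calcium entry switches on immediate early genes within minutes, without new protein synthesis. Many of these encode transcription factors such as Fos and Egr proteins, and later genes encode proteins that act at synapses or in signalling. Exercise and handling also release glucocorticoids, whose receptor binds DNA directly and raises a separate set of genes in neurons, glia and vessels.

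The labels give the cell type of every library as microglia, which does not describe the lysate. In lysate the neuronal genes Snap25 and Slc17a7 ran from 4200 to 14000 and from 235 to 1410 CPM (the reads of a gene scaled to a fixed library total, here over all 28 libraries), while the microglial genes Cx3cr1 and Tmem119 ran from 10.5 to 18.3 and from 16.0 to 52.6 CPM, against at least 966 and 1270 CPM in TRAP. Cohort 1 (8 libraries) had total counts of 70090518 to 121179170, and cohort 2 (6 libraries) had 155554001 to 179477632. The cohorts differed in 11485 of 16091 tested genes (71.4%) by the edgeR quasi-likelihood test, and the first principal component, with 49.9% of the variance, separated them. Cohort was a term in the tests of run against home cage, except where an alternative is said to leave it out or uses 1 cohort. For 2 run mice, labelled Male1 and Female2 in cohort 2, Y-linked genes went against the labelled sex in lysate and in TRAP. In lysate their summed Y-linked level was 0 CPM in the library labelled Male1 and 43.5 CPM in the library labelled Female2. The median residual SD of a gene, after cohort and condition, was 0.289 on the log2 scale over all tested genes. It was 0.205 for the 7958 genes with a mean log2 CPM of at least 4 and 0.999 for the 3591 under 1.

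Run mice had more mRNA of 5 genes, Gem, Gadd45b, Cdkn1a, Ppp1r3g and Arl4d, by 1.63-fold to 2.79-fold. These are 5 of 16091 genes tested (0.0311%) at an adjusted p under 0.05 by the edgeR quasi-likelihood test with Benjamini-Hochberg adjustment. No gene was called lower (0 genes, or 0.0%), by edgeR or by limma-voom, while DESeq2 called 28 genes higher and 10 lower. At an unadjusted p under 0.05, 1192 genes (7.41%) differed, 520 higher (3.23%) and 672 lower (4.18%). Counting genes by level alone, all run libraries lay above all home cage libraries of their own cohort for 48 genes (0.298%) and below them for 16 (0.0994%). Over all 14 libraries without regard to cohort, the groups did not overlap for 6 genes that were higher (0.0373%) and 2 that were lower (0.0124%). Gem, Atf3 and Wfikkn1 were among the 6, Tnfrsf19 and Opn3 were the 2, and Wfikkn1 and Tnfrsf19 are named because of this count, after their values were seen. With few libraries per group and many genes, some genes lie apart by chance. How many was not tested, so a lack of overlap is a description of levels only.

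On GRCm38 with GENCODE models the called genes lie at chr4:11704457-11714752 for Gem, chr10:80930073-80932204 for Gadd45b, chr17:29090976-29100727 for Cdkn1a, chr13:35958839-35970388 for Ppp1r3g and chr11:101665541-101667832 for Arl4d, each on the plus strand. Gem, a small GTPase of the RGK family that restrains calcium channels and the cytoskeleton, was the called gene with the largest fold. In home cage mice it was at 1.07, 2.16, 2.36 and 1.56 CPM in cohort 1 and at 1.14, 1.71 and 1.74 CPM in cohort 2. In run mice it was at 6.86, 3.74, 4.34 and 7.07 CPM in cohort 1 and at 3.93, 4.70 and 2.61 CPM in cohort 2. Every run library lay above every home cage library of either cohort, and the lowest run library was labelled Male1 of cohort 2. The log2 fold change was 1.48 ± 0.24 (SE, n = 7 and 7), a 2.79-fold difference (edgeR adjusted p = 0.0256).

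Gadd45b, a stress- and activity-induced gene that takes part in DNA demethylation and in p38 and JNK signalling, was at 7.18, 6.08, 7.16 and 7.84 CPM in home cage mice of cohort 1. Run mice of the same cohort had 19.8, 13.4, 12.1 and 12.2 CPM. In cohort 2 it was at 13.3, 15.2 and 17.1 CPM in home cage mice and at 25.1, 25.3 and 23.3 CPM in run mice. The groups did not overlap within a cohort, but the home cage mice of cohort 2 lay among the run mice of cohort 1. The difference was 1.84-fold (log2 0.88 ± 0.13 SE, edgeR adjusted p = 0.0256).

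Cdkn1a encodes p21, a cyclin-dependent kinase inhibitor that p53, glucocorticoids and neuronal activity can induce. Home cage mice had 13.1, 12.3, 18.4 and 15.6 CPM in cohort 1 and 40.7, 35.3 and 41.0 CPM in cohort 2. Run mice had 27.2, 22.4, 31.8 and 24.9 CPM in cohort 1 and 54.2, 65.9 and 49.2 CPM in cohort 2. The cohorts were further apart than the conditions, and within each the run mice were higher without overlap. The log2 fold change was 0.71 ± 0.12 (SE), or 1.63-fold, with an edgeR adjusted p of 0.0313. A gene model without a known function overlaps 273 exon bases of Cdkn1a on the other strand, and reads there could come from either.

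Ppp1r3g directs protein phosphatase 1 to glycogen, where it favours glycogen synthesis. Home cage mice had 10.3, 10.2, 10.7 and 9.61 CPM in cohort 1 and 19.7, 16.6 and 25.0 CPM in cohort 2. Run mice had 17.0, 20.6, 15.7 and 17.9 CPM in cohort 1 and 34.6, 37.4 and 25.9 CPM in cohort 2. The home cage values of cohort 1 lay close together, and in cohort 2 the lowest run library exceeded the highest home cage library by little. The log2 fold change was 0.75 ± 0.11 (SE), or 1.68-fold (edgeR adjusted p = 0.0256).

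Arl4d, a small GTPase of the ARF-like family that acts at the plasma membrane on actin and ARF6, was higher in cohort 2 than in cohort 1. Its means in cohorts 1 and 2 were 13.8 and 19.0 CPM in home cage mice and 23.8 and 30.2 CPM in run mice. Home cage mice were at 14.7, 17.3, 12.8 and 10.6 CPM in cohort 1 and at 16.8, 18.5 and 21.6 CPM in cohort 2. Run mice were at 26.2, 21.1, 27.0 and 21.2 CPM in cohort 1 and at 29.3, 32.9 and 28.5 CPM in cohort 2. The highest home cage library, at 21.6 CPM, exceeded 2 of the 7 run libraries, both of the other cohort. The log2 fold change was 0.74 ± 0.12 (SE), or 1.67-fold (edgeR adjusted p = 0.0256).

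**Figure D1:**
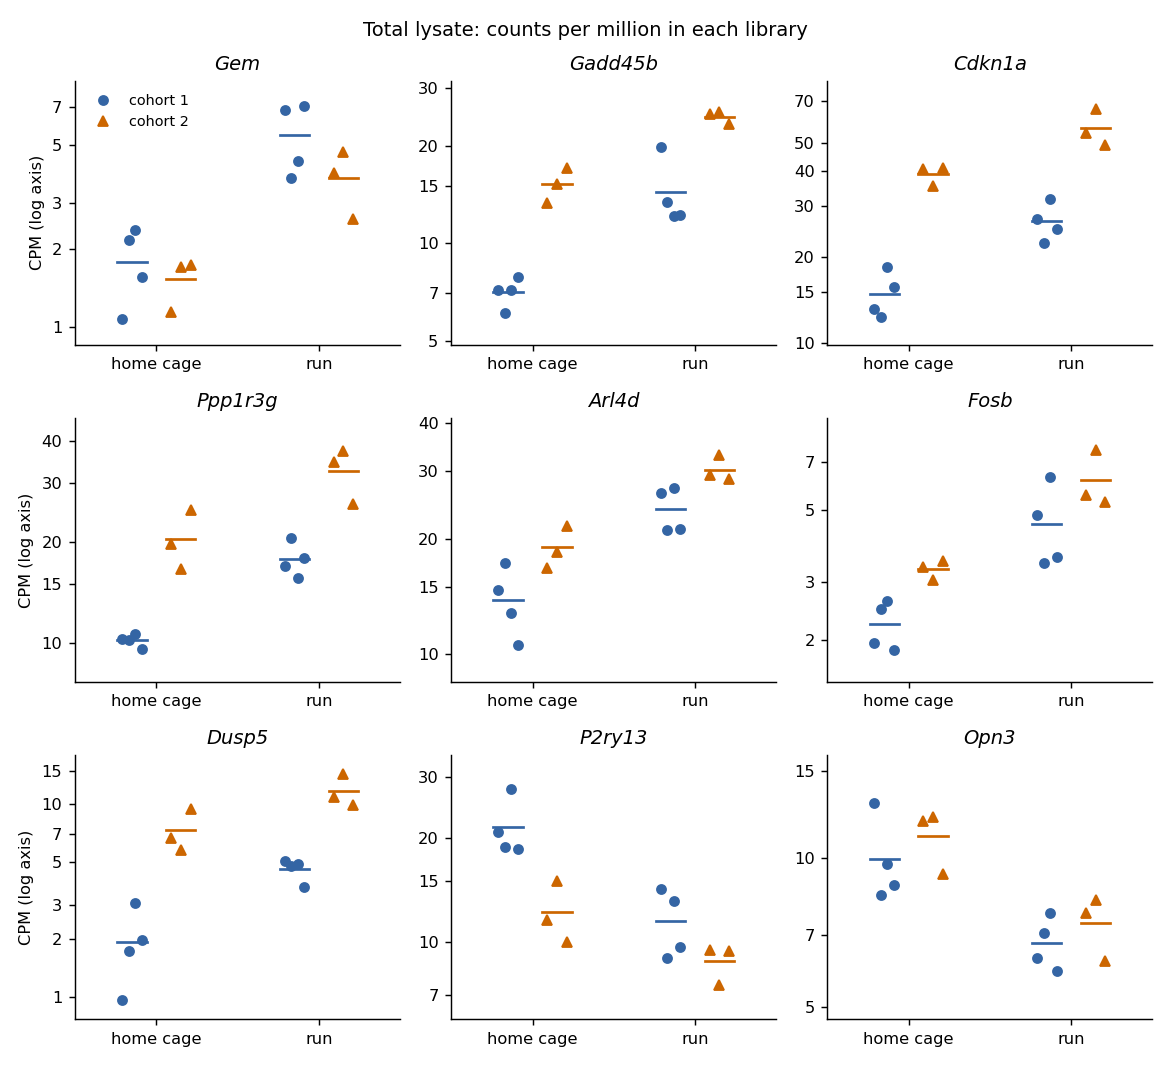
Scaled counts (CPM, log axis) of 9 genes in each total lysate library, for home cage and run mice. Circles are the 4 libraries of cohort 1 and triangles the 3 of cohort 2 per condition, and bars are cohort means. Within each cohort all run libraries lie above the home cage libraries for the first 7 genes and below them for P2ry13 and Opn3. For Gadd45b, Cdkn1a, Ppp1r3g and Dusp5 the cohorts lie further apart than the conditions.

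Which genes passed depended on which libraries entered. The log2 fold changes of the 5 genes kept their sign in all 30 alternatives, from 1.22 to 1.64 for Gem and from 0.61 to 1.06 for Gadd45b, but the genes stayed called in 12 to 16 of these. Leaving out 1 of 6 libraries ended every call. These were 3 home cage libraries (in cohort 1 Female1 and Male2, in cohort 2 Female1) and 3 run libraries (in cohort 1 Male2, in cohort 2 Female1 and Female2). Leaving out the cohort 1 run library Female1 gave 1 call, the cohort 1 run library Male1 gave 3, and the cohort 2 home cage library Male1 gave 9. With both mice of contrary sex markers left out there were 0 calls, with Gem at 1.55 and Gadd45b at 0.94 on the log2 scale (edgeR adjusted p = 0.138 and 0.116).

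Several of the genes that came next in p are also known to be induced by activity or stress. Fosb, an AP-1 transcription factor, was at 1.86 to 3.49 CPM in home cage mice (median 2.63) and at 3.43 to 7.61 CPM in run mice (median 5.29), with no overlap within either cohort. Its log2 fold change was 0.97 ± 0.18 SE (edgeR adjusted p = 0.0746). Atf3, a stress-induced transcription factor, was at 0.275 to 0.754 CPM in home cage mice (median 0.555) and at 1.09 to 3.07 CPM in run mice (median 2.03). Its groups did not overlap over all 14 libraries, and at this low level the log2 fold change was 1.80 ± 0.34 SE (edgeR adjusted p = 0.0746). Nfkbia, the inhibitor that holds NF-kB in the cytoplasm and a target of both NF-kB and the glucocorticoid receptor, was at 18.5 to 46.7 CPM in home cage mice (median 21.8) and at 29.6 to 60.0 CPM in run mice (median 33.9). Its log2 fold change was 0.58 ± 0.11 SE (edgeR adjusted p = 0.0746). For the zinc finger protein Zfp189 the log2 fold change was 0.88 ± 0.17 SE and for Gadd45g, a relative of Gadd45b, 0.65 ± 0.13, with edgeR adjusted p of 0.0773 and 0.13. Zfp189 was high in the home cage library Female2 of cohort 1, at 31.9 CPM against 8.46 to 16.9 CPM in the other 6.

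The top 15 by p on the higher side also held Tnfrsf12a, the receptor of the cytokine TWEAK (0.67 ± 0.14 SE), and the small GTPase Rasd1, named for its induction by dexamethasone (0.91 ± 0.19). Further members were the matrix protein gene Cyr61 (0.72 ± 0.15), the endosomal protein gene Plekhf1 (0.75 ± 0.16) and Dusp5, a phosphatase that inactivates ERK in the nucleus (1.01 ± 0.22). Dusp5 was at 0.962 to 3.08 CPM in home cage mice of cohort 1 and at 3.73 to 5.11 CPM in run mice of that cohort. In cohort 2 it was at 5.83 to 9.47 CPM and 9.98 to 14.4 CPM, so the groups did not overlap within a cohort. A gene model on the other strand overlaps 547 exon bases of Dusp5, and reads there could come from either. DESeq2 called all 15 of these genes, edgeR the 5 above.

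Promoters of the genes higher in run mice are shown for Gadd45b and Arl4d, which were called, and for Fosb, Zfp189 and Dusp5, which came next in p, since short motifs of activity-dependent factors lie close to their starts. Sequences are from RefSeq on GRCm38.p6 and hold the 250 bases before the transcription start, and where a gene had several starts the first entry was used. The windows are chr10:80929841-80930090 (Gadd45b, plus strand), chr11:101665291-101665540 (Arl4d, plus), chr7:19310046-19310295 (Fosb, minus), chr4:49520926-49521175 (Zfp189, plus) and chr19:53528895-53529144 (Dusp5, plus). Capitals mark the cyclic AMP response element TGACGTCA, its core TGACG, the EGR motif GCGNGGGCG and the CArG box bound by serum response factor, on either strand.
Gadd45b: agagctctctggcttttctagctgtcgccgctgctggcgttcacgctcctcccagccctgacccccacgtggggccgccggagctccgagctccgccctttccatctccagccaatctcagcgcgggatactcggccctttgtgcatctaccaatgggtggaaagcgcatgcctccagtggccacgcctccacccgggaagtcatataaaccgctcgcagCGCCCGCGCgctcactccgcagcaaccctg
Arl4d: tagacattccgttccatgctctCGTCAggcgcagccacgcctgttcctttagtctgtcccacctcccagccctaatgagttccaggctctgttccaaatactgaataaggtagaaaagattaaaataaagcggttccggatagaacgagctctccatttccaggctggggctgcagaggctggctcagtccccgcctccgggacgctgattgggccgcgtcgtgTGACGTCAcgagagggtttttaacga
Fosb: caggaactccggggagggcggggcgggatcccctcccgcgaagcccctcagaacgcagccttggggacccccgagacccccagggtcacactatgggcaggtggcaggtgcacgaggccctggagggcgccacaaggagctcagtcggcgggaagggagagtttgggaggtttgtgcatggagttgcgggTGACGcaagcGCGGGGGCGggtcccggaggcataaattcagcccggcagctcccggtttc
Zfp189: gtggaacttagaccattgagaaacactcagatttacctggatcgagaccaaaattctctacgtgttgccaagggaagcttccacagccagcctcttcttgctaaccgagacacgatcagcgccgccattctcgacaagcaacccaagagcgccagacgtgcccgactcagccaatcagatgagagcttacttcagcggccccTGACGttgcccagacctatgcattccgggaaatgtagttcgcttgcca
Dusp5: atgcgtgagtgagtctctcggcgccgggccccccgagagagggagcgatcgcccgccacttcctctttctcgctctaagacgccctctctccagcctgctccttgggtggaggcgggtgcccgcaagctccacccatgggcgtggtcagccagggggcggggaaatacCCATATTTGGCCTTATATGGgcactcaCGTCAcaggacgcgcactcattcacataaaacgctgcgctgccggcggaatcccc

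The cyclic AMP response element is the binding site of CREB, the factor that calcium and cyclic AMP activate, and Arl4d holds a full copy from base -26 to -19. The full element was in 2.66% of the 12075 promoters of tested genes and in 1 of the 11 higher genes that had a promoter entry. Every full element contains the core, and the core alone was in 25.5% of all promoters and in 5 of the 11, namely Ppp1r3g, Arl4d, Fosb, Zfp189 and Dusp5. The EGR motif was in 8.46% of all promoters and in 4 of the 11, Gadd45b (from -30), Fosb (from -50), Tnfrsf12a and Plekhf1. In Dusp5 a pair of CArG boxes lies side by side from -82 to -63, and the CArG box was in 1.23% of all promoters. The AP-1 motif TGANTCA was in 4.52% of all promoters and in 0 of the 11, and the NF-kB motif in 4.55% and in 2 of them, Fosb and Nfkbia (NF-kB motifs are not capitalised above). Of the top 15 genes by p on the lower side, 12 had an entry, with the core in 3, the AP-1 motif in 1 (Npy1r) and the full element and the EGR motif in 0. These matches describe letters only. Gem, Rasd1 and Cyr61 were among the genes not matched.

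No gene passed the test in the direction of lower mRNA. The smallest p belonged to P2ry13, a microglial receptor for ADP, at 20.8, 18.8, 27.8 and 18.6 CPM in home cage and 14.2, 8.98, 13.1 and 9.65 CPM in run mice of cohort 1. In cohort 2 it was at 11.6, 15.0 and 10.0 CPM and at 9.49, 7.48 and 9.41 CPM. Run mice lay below home cage mice within each cohort, with a log2 fold change of -0.72 ± 0.15 SE (edgeR adjusted p = 0.154). Opn3, an opsin expressed in the brain, was at 8.43 to 12.9 CPM in home cage mice and at 5.91 to 8.23 CPM in run mice. It was the named gene on this side whose groups did not overlap over all 14 libraries (log2 -0.57 ± 0.13 SE, edgeR adjusted p = 0.283). Some of its exon bases (461) are shared with Chml on the same strand.

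The other 13 genes on this side had log2 fold changes from -0.82 to -0.39 and edgeR adjusted p from 0.30 to 0.49. By p they were Ttc30b (-0.59 ± 0.14 SE), the adhesion genes Flrt2 (-0.64 ± 0.15) and Pcdh19 (-0.44 ± 0.11), Chsy1, which builds chondroitin chains (-0.61 ± 0.16), Npy1r, Arhgap29 (-0.81 ± 0.21) and the microtubule protein gene Dcx (-0.70 ± 0.18). Then came Itm2a (-0.49 ± 0.13), the endocytic adaptor gene Dab2 (-0.52 ± 0.14), St8sia4, which adds polysialic acid to NCAM (-0.82 ± 0.22), Naf1 (-0.66 ± 0.18), Rspo2 and Myo9a (-0.39 ± 0.11). Npy1r, a receptor of neuropeptide Y, was at -0.46 ± 0.12, and the Wnt co-activator Rspo2 at -0.49 ± 0.13. DESeq2 called P2ry13, Opn3, Ttc30b and Flrt2 of the 15.

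The cohorts were made of different mice, so that each can be read against the other. Of 15693 genes tested in both, 60.7% had a log2 fold change of the same sign. Of the 185 genes with an unadjusted p under 0.01 in cohort 1, 150 (81.1%) had the same sign in cohort 2, and 30 (16.2%) also had an unadjusted p under 0.05 there with that sign, against 1.87% of all genes. Their median log2 change, taken along the sign of cohort 1, was 0.62 in cohort 1 and 0.25 in cohort 2. In the other direction, 44 of the 55 genes chosen in cohort 2 had the same sign in cohort 1, and 18 (32.7%) had a p under 0.05 with it, against 4.33% of all genes. All 5 called genes were in both sets, with Gem at 1.62 ± 0.34 and 1.28 ± 0.29 (SE) on the log2 scale in cohorts 1 and 2, and Cdkn1a at 0.84 ± 0.18 and 0.52 ± 0.14. So were, among others, Fosb, Atf3, Zfp189, Tnfrsf12a, Sgk1 and Tsc22d3, listed after their values were seen. The 5 were called by p over both cohorts, which favours a small p and the same sign in each. Their presence in both sets is therefore no separate check. Across the 8206 genes with a mean log2 CPM of at least 4, the log2 fold changes of the cohorts correlated at a Spearman's rho of 0.45, and across all 15693 at 0.23. Genes of a library are not independent, and part of this relation moved with GC content. With a GC correction in each cohort the share of the same sign was 57.1% over all genes and 72.2% for genes chosen in cohort 1, and rho was 0.30.

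**Figure D2:**
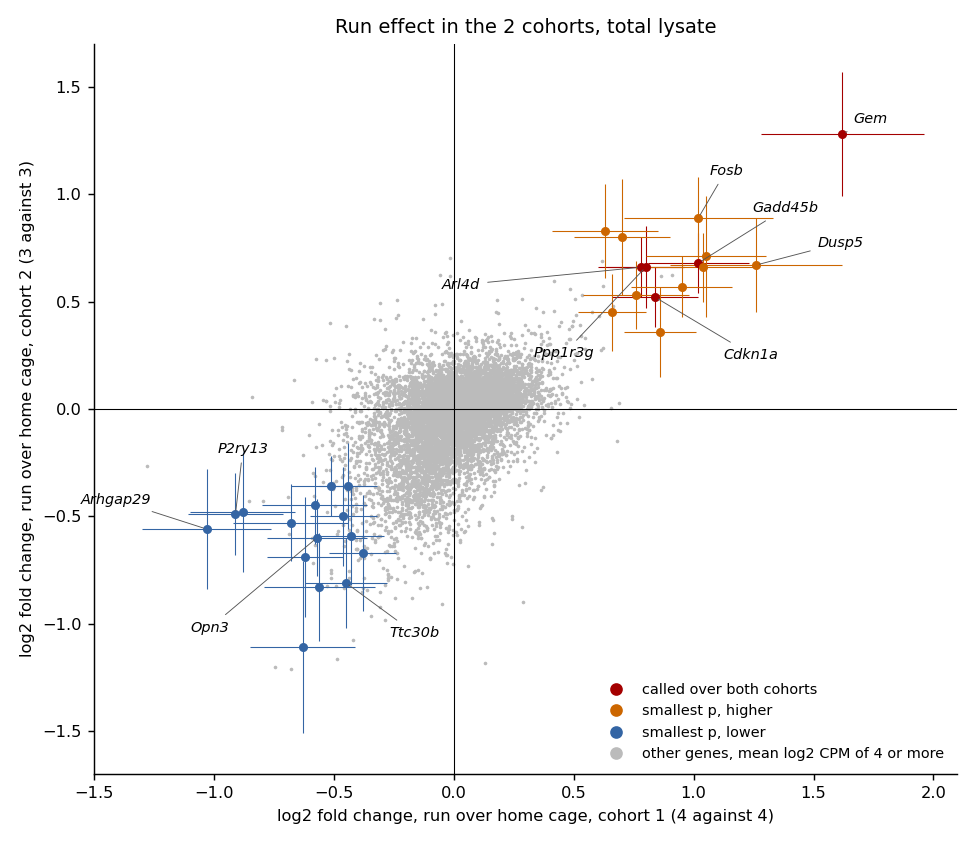
Log2 fold change of run over home cage in cohort 1 (horizontal axis, 4 against 4 libraries) and cohort 2 (vertical axis, 3 against 3), with bars of 1 SE. Red points are the 5 called genes, orange and blue points the other genes with the smallest p higher and lower, and grey points the genes with a mean log2 CPM of at least 4. The coloured genes were chosen by p over both cohorts, which places them away from the origin. Gem lies farthest, at 1.62 and 1.28.

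Whether running acted alike in both cohorts was tested as an interaction. No gene passed (0 of 16091, 0.0%) by edgeR, with 329 (2.04%) at an unadjusted p under 0.05, and DESeq2 called 2. The smallest p belonged to Fbxo15, at 0 CPM in the run mice of cohort 1 and at most 1.23 CPM elsewhere. Next came Arhgap6, a gene for a GTPase-activating protein, at 7.75 to 13.9 CPM in home cage and 3.71 to 4.91 CPM in run mice of cohort 1, against 1.91 to 3.61 and 2.53 to 4.03 CPM in cohort 2. Its interaction was 1.64 ± 0.37 SE (edgeR adjusted p = 1.0). Ttr, the transthyretin made by the choroid plexus, was at 0.714 to 6.34 CPM in the home cage mice of cohort 1, at 8.35 to 158 CPM in those of cohort 2 and at no more than 8.71 CPM in any run mouse. It had the largest residual SD of the genes with a mean log2 CPM of at least 4 (1.56 on the log2 scale). Thg1l, a tRNA-modifying enzyme, was higher in run mice of cohort 1 (3.29 to 5.60 CPM against 6.62 to 9.38 CPM) but not in cohort 2 (3.79 to 5.65 CPM against 3.36 to 4.25 CPM), an interaction of -1.2 ± 0.33 SE that did not pass (edgeR adjusted p = 1.0).

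Immediate early transcription factors mostly had higher levels in run mice. This and the other gene lists were chosen with earlier results of these data known. Their counts describe the lists and are no test of them. Of 27 listed genes 26 were tested, 22 had a positive log2 fold change, against 50.5% of all tested genes, and the median was 0.32, against 0.0 for all genes. At an unadjusted p under 0.05, 12 were higher and 1 lower, against 3.23% and 4.18% of all genes, and 0 were called. Values were uneven within families. Of the Fos family, Fosb was at 0.97 ± 0.18 (SE), Fosl2 at 0.66 ± 0.15 and Fos at 0.47 ± 0.18, while of the Jun family Junb was at 0.46 ± 0.15, Jund at 0.09 ± 0.16 and Jun at -0.10 ± 0.11. Of the Egr family, Egr4 was at 0.53 ± 0.13 and Egr2 at 0.51 ± 0.20, while Egr1, the most abundant at 412 ± 66.6 CPM in home cage mice (SD, n = 7), was at 0.02 ± 0.10 and Egr3 at 0.01 ± 0.14. Klf6 was at -0.27 ± 0.08, with no overlap within either cohort. The list's median was 0.33 in cohort 1 and 0.29 in cohort 2, and 20 genes were positive in both.

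Among activity-induced effectors, genes that act downstream at synapses and in signalling, 3 of 33 tested were called, Gem, Gadd45b and Arl4d, against 0.0311% of all genes. With the list chosen when earlier results were known, this share is no test of it. Of the 33, 22 had a positive log2 fold change (50.5% of all genes), with a median of 0.19 (0.0 for all genes). An unadjusted p under 0.05 was reached by 12, all higher, against 3.23% of all genes higher. Arc, the capsid-like regulator of AMPA receptor traffic, was at 248 ± 163 CPM in home cage and 396 ± 214 CPM in run mice (SD, n = 7), a log2 fold change of 0.66 ± 0.22 SE with an edgeR adjusted p of 0.568. Bdnf (0.04 ± 0.08), Homer1 (-0.07 ± 0.12), Nptx2 (0.15 ± 0.14) and Scg2 (-0.03 ± 0.08), also known to follow activity, had values near 0. Of 16 MAP kinase phosphatases and feedback inhibitors, 9 were positive, and 3 had an unadjusted p under 0.05, Dusp5, Dusp14 (0.16 ± 0.07) and Errfi1 (0.42 ± 0.10), a feedback inhibitor of the EGF receptor.

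Glucocorticoid-responsive genes, a list also chosen with earlier results known, were positive in 34 of 35 cases, and their median log2 fold change was 0.30. Over all genes 50.5% were positive, with a median of 0.0. At an unadjusted p under 0.05, 19 of the list were higher and 0 lower, against 3.23% and 4.18% of all genes, and 1, Cdkn1a, was called (0.0311% of all genes). The serum- and glucocorticoid-induced kinase Sgk1 was at 70.4 to 202 CPM in home cage mice (median 98.2) and at 125 to 240 CPM in run mice (median 190). The top of the home cage range was 1 library, Female2 of cohort 1, and the other 6 were at 70.4 to 107 CPM, below all run mice. Its log2 fold change was 0.79 ± 0.18 SE (edgeR adjusted p = 0.234). Tsc22d3, which encodes GILZ, was at 275 ± 112 and 422 ± 164 CPM in home cage and run mice (SD, n = 7; log2 0.59 ± 0.14 SE), and the co-chaperone gene Fkbp5 from 23.6 ± 5.68 to 32.1 ± 8.65 CPM (0.44 ± 0.15 SE). Klf15 (0.48 ± 0.13), Klf9 (0.26 ± 0.09), Arrdc2 (0.76 ± 0.19) and the metallothionein Mt2 (0.25 ± 0.09) were among the others. The list shares 11 genes with other lists, among them Per1, Nfkbia, Cdkn1a and Errfi1. In the cohorts the medians were 0.35 and 0.28, and 29 genes were positive in both.

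**Figure D3:**
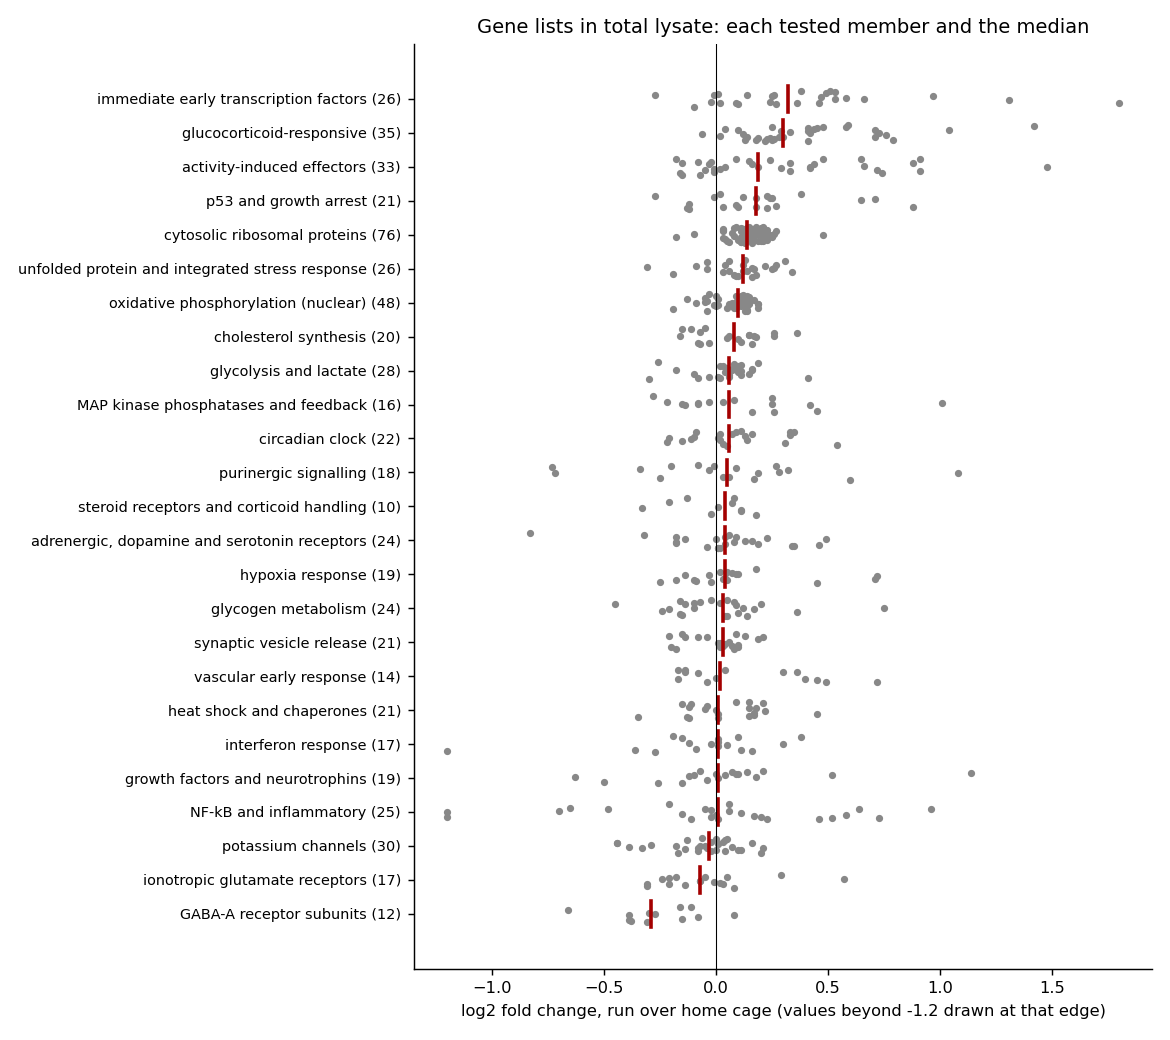
Log2 fold change of run over home cage for each tested member (grey points) of 25 gene lists, with the median in red and the number tested in brackets. Values beyond -1.2 are drawn at that edge. The medians run from 0.32 for immediate early transcription factors and 0.30 for glucocorticoid-responsive genes to -0.29 for GABA-A receptor subunits.

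The p53 and growth arrest list held 21 genes, of which 16 were positive (76.2%, median 0.18). For all tested genes the share was 50.5% positive, with 3.23% higher and 4.18% lower at an unadjusted p under 0.05. The members with an unadjusted p under 0.05 (5) included Cdkn1a and the Gadd45 family, Gadd45b, Gadd45g and Gadd45a (0.38 ± 0.14 SE), whereas Mdm2 (0.02 ± 0.09), Bbc3 (0.09 ± 0.18) and Ccng1 (-0.12 ± 0.14), also targets of p53, had an unadjusted p above 0.05. Of 24 tested glycogen genes, 13 were positive (54.2%, near the share of all genes). The targeting subunits Ppp1r3g and Ppp1r3c (0.36 ± 0.10) were the 2 with an unadjusted p under 0.05. The brain phosphorylase Pygb was at 0.10 ± 0.08 and the synthase Gys1 at 0.02 ± 0.13. Of 26 genes of the unfolded protein and integrated stress response, 21 were positive with a median of 0.12, led in p by Manf (0.34 ± 0.09), an ER-resident growth factor, and Herpud1 (0.26 ± 0.07).

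Lists of genes present in most cells had small, mostly positive values. Over all tested genes 50.5% were positive, with 3.23% higher and 4.18% lower at an unadjusted p under 0.05. Of 76 cytosolic ribosomal protein genes, 74 were positive with a median of 0.14, and 8 had an unadjusted p under 0.05, all higher. Of 48 nuclear genes of oxidative phosphorylation, 39 were positive with a median of 0.10, and 0 had an unadjusted p under 0.05. Neurotransmitter receptors were read by class. Of 24 tested adrenergic, dopamine and serotonin receptor genes, 17 were positive (median 0.04). At an unadjusted p under 0.05 there was 1, lower, near the share of all genes. Of 12 GABA-A receptor subunits 1 was positive, with a median of -0.29, and 4 had an unadjusted p under 0.05, all lower, among them Gabra2 (-0.66 ± 0.20 SE). With a correction for GC content this median was -0.10, while those of the immediate early and glucocorticoid lists were 0.26 and 0.28. Of 17 ionotropic glutamate receptor genes 6 were positive (median -0.07), and Grin2b, Grik2, Grik3 and Gria2 had an unadjusted p under 0.05, all lower.

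Transcripts with more G and C were on the whole higher in run mice. Across 15949 genes the log2 fold change correlated with GC content at a Spearman's rho of 0.36. With genes split by GC into 4 equal bins, the median went from -0.13 in the lowest bin to 0.07 in the highest. Within cohorts rho was 0.22 and 0.39. Between the cohorts themselves rho was 0.79, with more GC-rich reads in cohort 2. In libraries labelled female rho was 0.61 and in those labelled male -0.37. The 5 called genes had a median GC content of 55.7%, against 49.8% over all genes, and with a GC correction 9 genes were called, all higher. These included Gem, Gadd45b, Cdkn1a and Ppp1r3g of the 5, and also Nfkbia, Zfp189, Errfi1 and Dio2, which activates thyroid hormone. Arl4d had a log2 fold change of 0.65 under that correction (edgeR adjusted p = 0.0786).

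**Figure D4:**
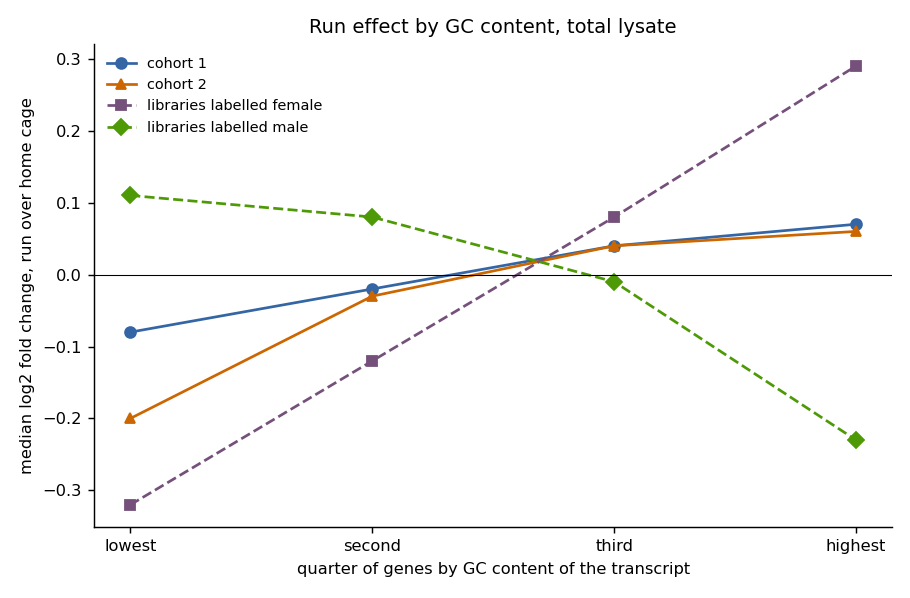
Median log2 fold change of run over home cage in 4 equal bins of genes from lowest to highest GC content, within each cohort (solid lines) and within the libraries of each labelled sex (dashed lines). The medians go from -0.32 to 0.29 in libraries labelled female and from 0.11 to -0.23 in those labelled male.

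The run effect differed between the labelled sexes in 1124 genes (6.99%), 213 higher (1.32%) and 911 lower (5.66%) in male minus female, by the edgeR quasi-likelihood test of the interaction. With the GC correction no gene was called (0 of 15949 by edgeR, 1610 at an unadjusted p under 0.05). The genes lower in that difference had a median GC content of 58.2% and those higher 42.7%. With both mice of contrary sex markers left out, 434 genes were called. Adgrb1, an adhesion receptor at synapses, had a run effect of 0.75 in libraries labelled female and -0.66 in those labelled male on the log2 scale, a difference of -1.42 ± 0.20 SE (edgeR adjusted p = 0.00794), and -0.54 after GC correction (edgeR adjusted p = 0.195). Cltc, the clathrin heavy chain, had -0.49 and 0.27, a difference of 0.74 ± 0.14 SE (edgeR adjusted p = 0.0101), and 0.39 after GC correction (edgeR adjusted p = 0.213).

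Cell type markers were summed in each library to follow the makeup of the lysate. In bulk tissue fewer cells of a type and less RNA per cell cannot be told apart. Markers of striatal neurons, which lie beneath the cortex, had log2 fold changes of opposite sign in the cohorts, with 0 of 12 genes at an unadjusted p under 0.05 over both and with overlapping sums. The 12 genes summed to 1660 to 2310 CPM in home cage and 1470 to 1810 CPM in run mice of cohort 1, and to 1010 to 1980 CPM and 1480 to 2080 CPM in cohort 2. The median log2 fold change was -0.29 in cohort 1 and 0.41 in cohort 2, and 0 of 12 genes had the same sign in both. Their part in the other results was not tested. Microglial markers summed to 773 to 1040 CPM in home cage and 769 to 1060 CPM in run mice. Of the 20 genes 9 were positive, against 50.5% of all genes, with a median of -0.02. At an unadjusted p under 0.05, 4 of the 20 were lower and 0 higher, against 4.18% and 3.23% of all genes. The 4 were P2ry13, its relative P2ry12 (-0.34 ± 0.16 SE), Gpr34 (-0.60 ± 0.26) and the transcription factor gene Sall1 (-0.38 ± 0.14). None passed the edgeR test over all genes, while Cx3cr1 (-0.13 ± 0.12), Tmem119 (0.13 ± 0.13) and Csf1r (-0.03 ± 0.10) had an unadjusted p above 0.05.

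Of 12 endothelial markers 3 were positive, against 50.5% of all genes, with a median of -0.29. At an unadjusted p under 0.05 there were 3, all lower, against 4.18% of all genes lower. Slco1a4, an organic anion transporter of the blood-brain barrier, was at 19.2 ± 4.44 CPM in home cage and 12.4 ± 5.36 CPM in run mice (SD, n = 7), a log2 fold change of -0.64 ± 0.20 SE. The tight junction gene Cldn5 was at -0.55 ± 0.24. Cdh5 was at -1.10 ± 0.46, at low levels of 0.973 CPM in home cage and 0.452 CPM in run mice. The 3 positive genes were near 0, Egfl7 (0.03 ± 0.10) and Ly6c1 (0.09 ± 0.15), the most abundant of the list, and Esam (0.02 ± 0.12). The median was -0.36 in cohort 1, -0.20 in cohort 2 and -0.29 with the GC correction. Summed levels overlapped, at 108 to 154 CPM in home cage and 108 to 130 CPM in run mice of cohort 1, and at 196 to 233 and 197 to 215 CPM in cohort 2. Apold1, an early response gene of vessels, was at 6.42 ± 0.959 CPM in home cage and 8.84 ± 1.32 CPM in run mice (SD, n = 7; log2 0.45 ± 0.12 SE, no overlap within either cohort, edgeR adjusted p = 0.482). Choroid plexus markers summed to 13.6 to 179 CPM in home cage and 10.1 to 21.2 CPM in run mice. The blood genes Hba-a1, Hba-a2, Hbb-bs and Hbb-bt were listed at 0 in every library.

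**Figure D5:**
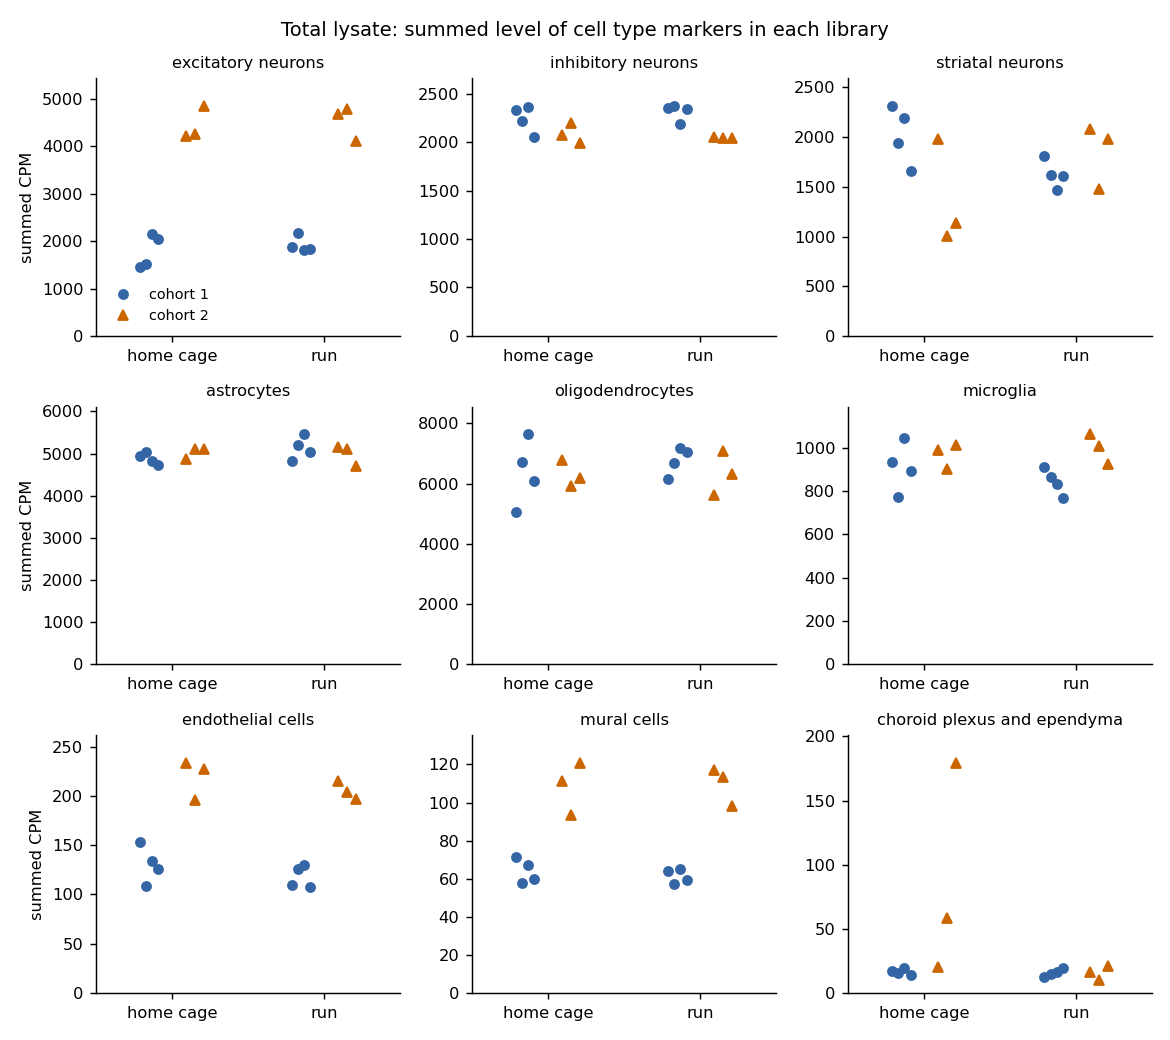
Summed level of marker genes of 9 cell types in each total lysate library (CPM, axes from 0), with cohort 1 as circles and cohort 2 as triangles. Excitatory, endothelial and mural markers separate the cohorts. Striatal markers are lower in most run than home cage mice of cohort 1 (1470 to 1810 against 1660 to 2310 CPM), and choroid plexus markers reach 179 CPM in 1 home cage mouse of cohort 2.

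TRAP libraries of the same mice gave the run effect on tagged ribosomes, where 7 of 15203 genes (0.046%) were called by edgeR. No gene differed in its run effect between lysate and TRAP by edgeR (0 of 16716, 0.0%), with 775 (4.64%) at an unadjusted p under 0.05, and DESeq2 called 44. The 5 lysate genes had positive log2 fold changes in TRAP too, at 0.95 ± 0.22 (SE) for Gadd45b, 0.87 ± 0.21 for Ppp1r3g, 0.86 ± 0.20 for Arl4d, 0.99 ± 0.36 for Gem and 0.40 ± 0.15 for Cdkn1a. None of the 5 was called in TRAP, with edgeR adjusted p from 0.241 to 0.999. Their differences of lysate minus TRAP ran from -0.12 to 0.48 with SE of 0.20 to 0.41. These SE are no limit of detection, and differences well above them may also have been missed. Atf3 had the smallest p, at 1.80 ± 0.34 in lysate and -0.36 ± 0.28 in TRAP (difference 2.14 ± 0.42 SE, edgeR adjusted p = 0.22). The lysate and TRAP libraries of a mouse share its tissue, so the values are given side by side. TRAP also held neuronal RNA, with Snap25 at a median of 3630 CPM against 10700 CPM in lysate.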

How the data were processed

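Total lysate of motor cortex from 14 mice was analysed, with the 14 TRAP libraries used for 1 comparison. The authors deposited raw counts per gene symbol in 1 table of 24391 symbols, whole numbers without normalisation. Per the labels' protocols, RNA was isolated with an RNeasy kit and libraries were made with Nextera XT. The submitters' processing notes name STAR 2.7.7a, featureCounts, DESeq2 and GRCm38. No source used here names the annotation, the strand setting or the read filters. Columns without a cohort mark were taken as cohort 1, and no column was of another series (0 columns).

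Counts were tested with edgeR 4.0.16 in R 4.3.3 (TMM, filterByExpr, quasi-likelihood F test, cohort as a term, Benjamini-Hochberg at 5%), which left 16091 genes, while 4608 symbols had 0 reads in all lysate libraries. CPM are TMM-scaled. Fold changes are log2. Interactions tested cohort, labelled sex and fraction. Alternatives were limma 3.58.1 (voom), DESeq2 1.42.0, other scalings and filters, a GC correction (a loess curve of span 0.3 on each library's counts, GC content known for 99.1% of tested genes), and left-out libraries. The fit was tested on simulated data. Between libraries of a group, chi-square over its degrees of freedom was at least 69.6, far above sampling noise. P-values set a difference against the spread between libraries, in which mouse, dissection and library preparation are not separated.

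Named were all called genes, the 15 with the smallest p in each direction whose mean log2 CPM reached 1, and up to 3 members of each of 39 lists (25 of processes, 14 of cell types) with the smallest unadjusted p under 0.05. For interactions they were the called genes, at most 10 a direction. Models without a gene name were passed over. Other list members serve as examples chosen after their values were seen. Members and lists were chosen with earlier results of these data known. Lysate and TRAP libraries of a mouse are paired by their titles. Their deviations from group means correlated between -0.059 and 0.111. Gene overlaps come from GENCODE on GRCm38, promoters from RefSeq on GRCm38.p6. Genes of the mitochondrial genome were not analysed here. A few genes that the naming rule covers are not reported here.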

Additional observations from a re-analysis of the deposited data

Results flagged for a closer look

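In 4 of 182 groups looked at (91 named genes, 7 libraries each), 1 home cage library lay far from the rest. Chance alone marks about 1 in 20 such groups. The library Female2 of cohort 1 was highest for Zfp189 (31.9 CPM against 8.46 to 16.9), Sgk1 (202 CPM against 70.4 to 107) and Herpud1 (118 CPM against 91.6 to 103). The library Female1 of cohort 1 was highest for Arhgap29 (19.7 CPM against 7.49 to 12.8).

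The run effect differed between the labelled sexes for 1124 genes by edgeR's interaction test. In log2 units, male minus female, the genes with the smallest p were higher for Glrx3 (0.87), Zfp712 (1.26), Sarnp (0.83), Cltc (0.74), Naf1 (1.11), Ifitm6 (4.16), Thoc7 (0.69), Zfp715 (1.04), Ifit2 (1.32) and Frmpd4 (0.93). They were lower for Igsf8 (-1.14), Zmiz2 (-1.14), Adgrb1 (-1.42), Ssbp4 (-1.25), Gpr162 (-1.69), Rtn4r (-1.25), Btbd2 (-1.23), Dlgap3 (-1.32), Pcbp4 (-1.06) and Ttc9b (-1.13). None of these 20 passed with the GC correction, with edgeR adjusted p from 0.0885 (Gpr162) to 0.932 (Thoc7), and Ifitm6 was at most 2.48 CPM in any library. The 2 run mice of cohort 2 whose sex markers go against their labels are part of this comparison.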

How the results depend on the processing

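The 5 calls of run against home cage were 5 with other size factors (RLE, upper quartile), without the filter and with labelled sex as a term, and 6 with limma-voom or a stricter filter. The count moved to 38 with DESeq2, 9 with the GC correction and 2 with all 28 libraries in 1 fit (Atf3 higher, Hhex lower, named for this count). It was 0 without both mice of contrary sex markers, without the cohort term, and in cohort 1, cohort 2, libraries labelled female and libraries labelled male alone, where 869, 182, 888, 458, 3420 and 1884 genes had an unadjusted p under 0.05 by edgeR. Leaving out 1 library gave 0 to 9.

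Home cage and run mice share labels such as Female1 without a stated link. With these as a replicate block no gene was called (0, with 728 at an unadjusted p under 0.05 by edgeR). Deviations of same-label mice correlated between -0.263 and 0.053, and 1 of 7 matched its own label best, so the mice were not taken as paired. The mouse as a replicate block changed no call between lysate and TRAP (0, with 604 at an unadjusted p under 0.05).

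For the difference between cohorts DESeq2 called 2 genes, and leaving out 1 library 0. Between labelled sexes the 1124 calls became 1916 with DESeq2, 434 without the 2 mice, 191 in cohort 1 alone and 0 with the GC correction, the last 2 chosen after seeing the data. Leaving out 1 library gave 427 to 1843, with 427 when the cohort 1 run library Male2 was left out, 431 for the cohort 1 home cage library Male2 and 1843 for the cohort 2 home cage library Female1. The home cage libraries Female2 (553) and Male1 (641) of cohort 1 and Male1 of cohort 2 (591), and the run library Male1 of cohort 2 (735), also moved it by over 1.5 times. Between lysate and TRAP DESeq2 called 44, and leaving out 1 mouse 0 to 1. The share of cohort 1 genes with the same sign in cohort 2 was 72.2% with the GC correction, against 81.1%, and 79.2% and 75.9% with RLE factors and no filter, all added after seeing the data. The causes of these shifts were not tested, except that fewer samples enter where libraries are left out.

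Of 2728 log2 fold changes of named genes under alternatives, 2722 kept their sign. The others were Adm at -0.01 in cohort 2 alone, and Naf1 (0.01), Per1 (-0.19), Gabrg1 (0.03), Pmvk (-0.02) and Map2 (0.03) in libraries labelled male alone. Genes under a log2 CPM of 1 had a median SD of 0.999, which limits what can be seen there.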

Other observations

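Of the genes outside the named ones, some lay on 1 side in run mice without overlap within either cohort, and those given here were picked after their values were seen. Txnip, an arrestin-family protein that binds thioredoxin and limits glucose uptake, had a log2 fold change of 0.64 ± 0.16 SE (9.61 CPM in home cage and 15.1 CPM in run mice, edgeR adjusted p = 0.39). Hmox1, the inducible heme oxygenase, was at 0.61 ± 0.14 SE (5.27 and 7.76 CPM, edgeR adjusted p = 0.283). On the other side, Erbb4, a neuregulin receptor, was at -0.77 ± 0.26 SE (6.03 and 3.50 CPM), and the synaptic adhesion gene Cadm1 at -0.21 ± 0.07 SE (176 and 153 CPM), both with an edgeR adjusted p of 0.568.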
